A study of Arabidopsis thaliana with 16 samples.

Results

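RALF-like (RALFL) genes of Arabidopsis thaliana encode small secreted signalling peptides, and the transcripts of 10 of them were followed in suspension-cultured cells after contact with an inhibitor of cellulose synthesis. Members were the genes whose symbol is RALFL and a number and that have an ATH1 probe set annotated to exactly 1 gene, and they were chosen by their mean over the 4 methanol arrays of the TA set. The 10 highest were taken, and RALFL28 in any case. There were 11 such genes, each with 1 probe set, so 10 of 11 became members, of the 22746 probe sets tested. RALFL28 stood sixth by level, so the level alone would also have taken it. The lowest member was RALFL26, with a methanol mean of 2.48 log2, and the gene just outside was RALFL25, with 2.34. The gene table of assembly TAIR10.1 lists 32 genes with a RALFL symbol, and the other genes of the family, RALF1 and RALF23 among them, were not analysed here. The members were selected on these methanol levels, which are given as a description only. The changes below share the methanol arrays with that choice. RALFL28 is named in the rule itself and was named with results of these data known, so its changes are described without a test.

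The cells were of ecotype Landsberg erecta and were kept in the dark in medium that contained the auxin 2,4-D. Treatment began on day 3 after sub-culture in all groups and lasted 6 h. One group received 2 µM TA (thaxtomin A, a toxin of Streptomyces that cause potato scab), another 100 nM IXB (isoxaben, a synthetic herbicide), and the control group 20 µL of methanol, the solvent that all groups received. The full compound names are general knowledge and not from the labels. Each of the 3 groups had 4 replicates, each pooled from 2 flasks of 100 mL, and each was hybridised to 1 Affymetrix ATH1 array. The labels do not say whether the replicates came from separate parent cultures, so the spread that the p-values rest on may in part be technical. The 4 methanol arrays were processed once with the TA arrays and once with the IXB arrays, so the same 4 controls stand behind both comparisons. The column medians of the TA set (4.76 to 4.85 log2) lay below those of the IXB set (5.20 to 5.30). Levels are therefore compared only within a set. Precision is limited by having 4 arrays a group.

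RALF peptides are made as longer precursors, and the subtilase S1P cuts several of them at a dibasic site to release a cysteine-rich peptide into the cell wall space. The peptides bind receptor kinases of the FERONIA type together with small membrane-anchored co-receptors, and they also bind leucine-rich repeat extensins, proteins anchored in the wall. They are known for raising the pH outside the cell, for restraining growth, for the tip growth of pollen tubes and root hairs, and for tuning immune signalling. FERONIA and its relative THESEUS1 are known as sensors of the state of the wall, and THESEUS1 is best known from plants with too little cellulose.

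Bright and dim members could be told apart. The 6 members RALFL33, RALFL22, RALFL24, RALFL31, RALFL34 and RALFL28 had methanol means above 5 log2, a level below which probe sets are called dim here. The 4 others, RALFL18, RALFL32, RALFL27 and RALFL26, lay between 2.25 and 3.10 on all 8 columns of the TA set and between 2.55 and 3.61 on all 8 of the IXB set. RMA compresses small changes of such dim transcripts.

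RALFL28 (AT4G11510) had the largest difference from methanol among the 10 members with either compound. Its 4 methanol arrays in the TA set read 5.47, 5.83, 5.81 and 5.80 log2, and the 4 TA arrays 7.06, 6.76, 7.17 and 7.05. In the IXB set the methanol arrays read 6.01, 6.34, 5.99 and 6.10, and the IXB arrays 7.44, 7.49, 7.44 and 7.12. The lowest treated array stood above the highest methanol array in both sets. The means were 5.73 ± 0.17 with methanol and 7.01 ± 0.17 with TA, and 6.11 ± 0.16 with methanol and 7.37 ± 0.17 with IXB (SD, n = 4 each). These differences of 1.28 log2 with TA and 1.26 log2 with IXB correspond to 2.42-fold and 2.40-fold. In whole cultures, more cells with the transcript and more transcript per cell cannot be told apart, here or in any result below.

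**Figure D1:**
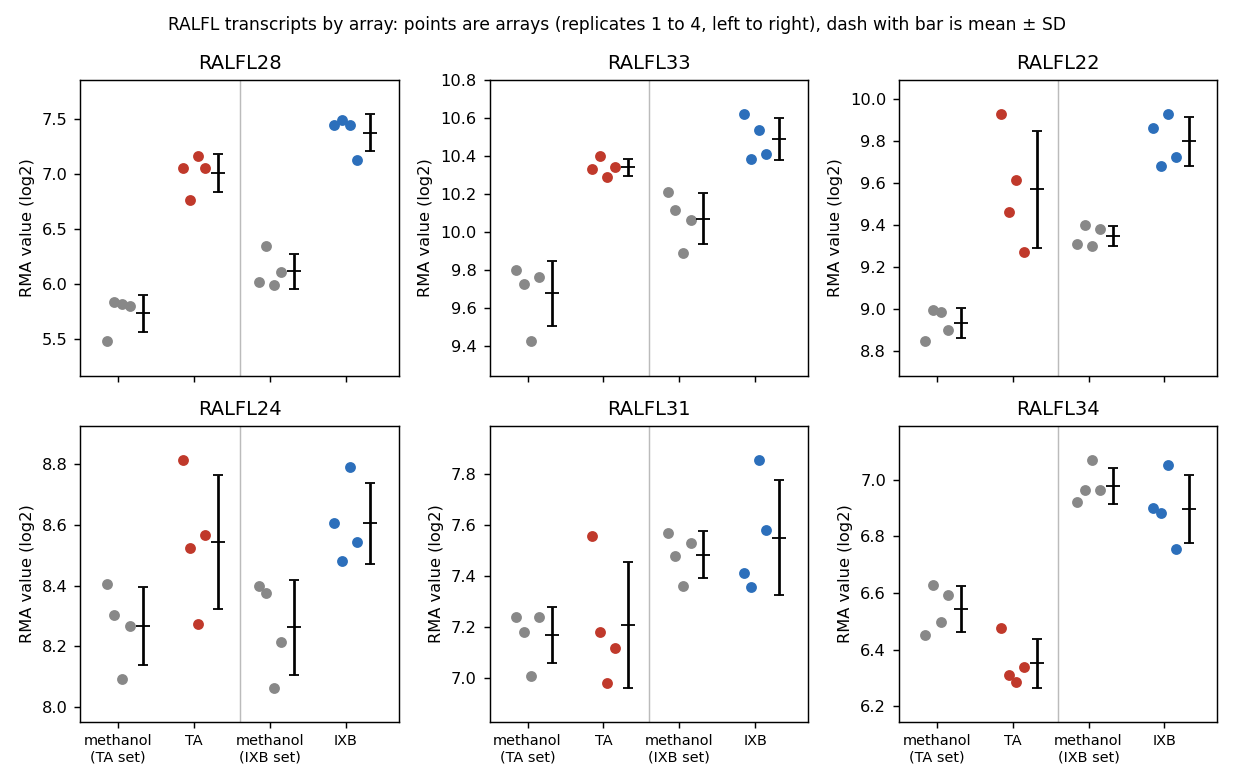
RMA values (log2, vertical axes, each panel with its own range) of the 6 members above the dim level on every array of the methanol and TA groups (left of the line) and the methanol and IXB groups (right of it). Points are arrays and dashes with bars are means ± SD (n = 4). Treated arrays of RALFL28, RALFL33 and RALFL22 lay above all methanol arrays of their set, while those of RALFL31 overlapped with them.

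RALFL33 (AT4G15800) and RALFL22 (AT3G05490), known among the RALF peptides that the stigma displays to pollen, rose with both compounds. RALFL33 read 9.80, 9.73, 9.43 and 9.76 log2 with methanol and 10.33, 10.40, 10.29 and 10.34 with TA. The TA arrays were close together and all above the methanol arrays. The increase was 0.66 log2 or 1.58-fold (SE 0.09, limma adjusted p = 3.44e-04). In the IXB set RALFL33 read 10.21, 10.11, 9.89 and 10.06 with methanol and 10.62, 10.38, 10.54 and 10.41 with IXB, again without overlap. The increase was 0.42 log2 or 1.34-fold (SE 0.09, limma adjusted p = 0.0237). RALFL33 no longer passed for IXB when methanol replicate 4, IXB replicate 1 or IXB replicate 3 was left out (limma adjusted p = 0.0654, 0.0701 and 0.0618), where the change was 0.42, 0.37 and 0.40 log2.

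RALFL22, which is also known from the tips of root hairs, read 8.84, 8.99, 8.98 and 8.90 log2 with methanol and 9.93, 9.46, 9.61 and 9.27 with TA. The TA arrays spread more widely (SD 0.28) than the methanol arrays (SD 0.071), but the lowest of them still exceeded every methanol array. The increase was 0.64 log2 or 1.56-fold (SE 0.12, limma adjusted p = 0.00368). With IXB the values were 9.86, 9.68, 9.93 and 9.72, against 9.31, 9.40, 9.30 and 9.38 with methanol, and the groups did not overlap. The increase was 0.45 log2 or 1.37-fold (SE 0.08, limma adjusted p = 0.00678).

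RALFL24 (AT3G23805) lay higher on average with both compounds and did not pass the test. It read 8.41, 8.31, 8.09 and 8.27 log2 with methanol and 8.81, 8.52, 8.27 and 8.57 with TA. TA replicate 3 lay within the methanol values and the other TA arrays above them. The difference was 0.28 log2 (95% interval 0.04 to 0.51, limma adjusted p = 0.147). With IXB it read 8.61, 8.48, 8.79 and 8.54, all above the methanol values of 8.40, 8.38, 8.06 and 8.21. The difference was 0.34 log2 (95% interval 0.14 to 0.55, limma adjusted p = 0.0816). With an intensity trend in the variance prior the adjusted p for IXB was 0.0426.

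RALFL31 (AT4G13950) differed least among the 6 members above the dim level. It read 7.24, 7.18, 7.01 and 7.24 log2 with methanol and 7.56, 7.18, 6.98 and 7.12 with TA, and TA replicate 1 alone exceeded the methanol arrays. In the IXB set it read 7.57, 7.48, 7.36 and 7.53 with methanol and 7.41, 7.35, 7.85 and 7.58 with IXB, and here IXB replicates 3 and 4 exceeded them. The differences were 0.04 log2 with TA (95% interval -0.20 to 0.29) and 0.07 with IXB (-0.16 to 0.29), and neither passed (limma adjusted p = 0.893 and 0.802).

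RALFL34 (AT5G67070), known as a ligand of THESEUS1 in the formation of lateral roots, was the only one of the 6 members above the dim level whose mean was lower with both compounds, and neither difference passed. With methanol it read 6.45, 6.63, 6.50 and 6.59 log2 and with TA 6.48, 6.31, 6.28 and 6.34. The TA arrays lay below every methanol array except TA replicate 1, which lay among them. The difference was -0.19 log2 (95% interval -0.36 to -0.03, limma adjusted p = 0.151). In the IXB set it read 6.92, 6.96, 7.07 and 6.96 with methanol and 6.90, 6.88, 7.05 and 6.75 with IXB, and the groups overlapped. That difference was -0.08 log2 (95% interval -0.25 to 0.09, limma adjusted p = 0.639).

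The 4 dim members showed no change that passed with either compound. Their differences ran from -0.15 (RALFL27) to 0.09 log2 (RALFL18) with TA and from -0.05 (RALFL26) to 0.10 (RALFL18) with IXB. Limma adjusted p was at least 0.398 with TA and at least 0.748 with IXB, and 0 of these 4 had an unadjusted p under 0.05 with either compound, where 22.5% of all probe sets did with TA and 17.3% with IXB. Their 95% intervals together spanned -0.35 to 0.31 log2 with TA and -0.25 to 0.40 with IXB. RALFL26, known as a pollen tube peptide, is the neighbour of the excluded RALFL25 in the gene table. RALFL26 read 2.59, 2.42, 2.46 and 2.45 log2 with methanol, 2.46, 2.46, 2.41 and 2.30 with TA, and 2.60, 2.62, 2.73 and 2.74 with IXB, against 2.81, 2.75, 2.67 and 2.67 with methanol in the IXB set. The groups overlapped in both sets. RALFL25 itself differed by 0.02 log2 with TA and 0.06 with IXB (limma adjusted p = 0.946 and 0.717).

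**Figure D2:**
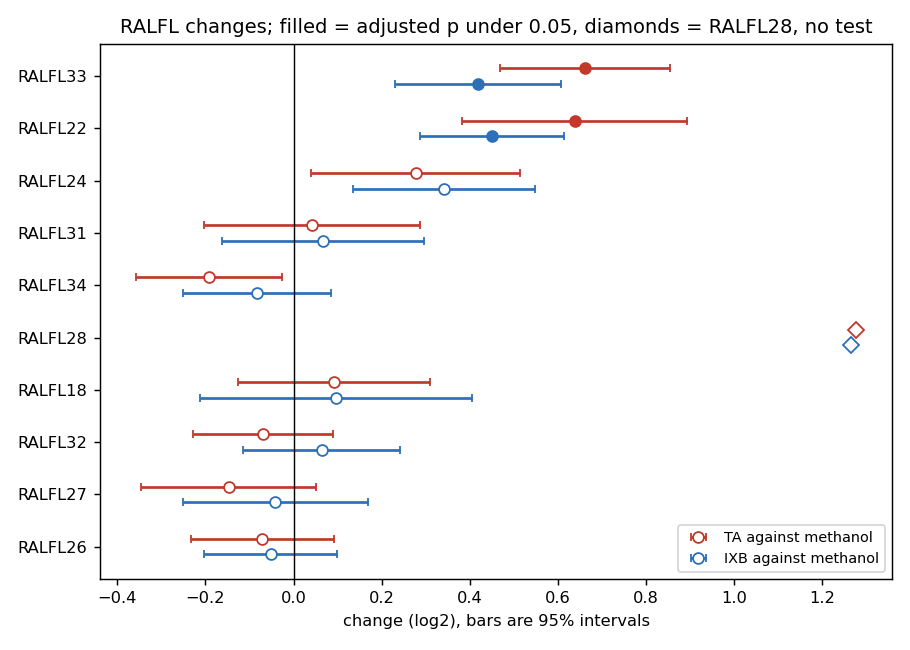
Difference from methanol (log2, horizontal axis) of the 10 members with TA and with IXB, and 95% intervals from the limma fit. Filled points passed an adjusted p of 0.05, and RALFL28 is drawn as diamonds with no interval or test. RALFL33 and RALFL22 passed with both compounds, and the 4 dim members lie around 0.

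Of the 9 members other than RALFL28, 2 rose with TA, 0 fell and 7 did not pass, while over all probe sets tested 5.41% were called higher and 4.70% lower (10.1% in all). With IXB the same counts were 2, 0 and 7, beside 2.20% called higher and 0.809% lower (3.01% in all). Calls were more common among bright probe sets. With dim ones removed, 21.3% were called with TA and 6.72% with IXB in either direction, beside 2 of the 5 members tested there with each compound. The median difference of the 9 was 0.04 log2 with TA and 0.07 with IXB, against a median of -0.01 over all probe sets in both comparisons. The groups did not overlap for 2 of the 9 with TA and 3 of the 9 with IXB, all higher, where the share over all probe sets was 7.45% and 5.35% in that direction. Both comparisons share the methanol arrays, so the fact that RALFL33 and RALFL22 passed in each is no independent repeat.

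Other transcripts moved on the same arrays. Of 9 measured genes of a list of 20 known from low oxygen, 9 rose with TA, with a median of 1.46 log2, and 0 passed with IXB, where the median was 0.48 log2. The mean of the 9 stood 1.08 to 1.69 log2 above the methanol mean on the TA arrays, -0.69 to 0.92 on the IXB arrays and -0.55 to 0.32 on the methanol arrays. Of 4 measured genes of dividing cells, 3 fell with TA and 0 passed with IXB. Over all probe sets 5.41% were called higher and 4.70% lower with TA, and 2.20% and 0.809% with IXB. Both lists were chosen with earlier results of these data known, so their counts are a description only. TA replicate 1 and IXB replicate 3 had the highest mean of the low-oxygen list within their groups, and each was also the highest array of its group for 4 of the 6 members above the dim level. For TA replicate 1 these were RALFL22, RALFL24, RALFL31 and RALFL34, and for IXB replicate 3 they were the same 4 genes. RALFL28 and RALFL33 peaked on other arrays. Among the methanol arrays, replicate 4 had the highest mean of the low-oxygen list and was the highest array for 0 of the 6 members in either set. TA replicate 2 and IXB replicate 1, lowest on the list, were the lowest array for 1 and 0 of the 6 members. TA replicate 3 stood at 1.58 log2 on the list, above TA replicates 2 and 4, and was the lowest array for 4 members. IXB replicate 2, at 0.45 log2, was the lowest for 4 as well. The part of the low-oxygen and dividing-cell transcripts in the RALFL results was not tested. Markers of other cell types differed in level. The 8 measured pollen genes of 9 written averaged 2.76 to 2.86 log2 on the TA set arrays, with AT2G21480 the highest of them at 4.47 on the methanol arrays beside TA and 5.41 on those beside IXB. EXPA7, the 1 measured of 6 root hair genes, averaged 2.95 with methanol in the TA set, and RCA, the 1 measured of 5 genes of photosynthetic cells, averaged 9.13.

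The difference between the compounds was tested on all 12 arrays, with the methanol mean of the TA set subtracted from the TA values and that of the IXB set from the IXB values. The methanol means were subtracted as fixed values, and the error of the means of both sets cancels only in part. Intervals between the compounds may therefore be too narrow and p-values too small, for every gene compared in this way. TA was given at 2 µM and IXB at 100 nM, so the doses differed. Of the 9 members other than RALFL28, 0 passed in limma, where 4.77% of all probe sets did, and 1, RALFL33, had an unadjusted p under 0.05, as 19.6% of all probe sets did. For RALFL33 the TA arrays stood 0.61 to 0.72 log2 above methanol and the IXB arrays 0.31 to 0.55 above it, without overlap, as for 6.08% of all probe sets in that direction. TA exceeded IXB by 0.24 log2 (95% interval 0.07 to 0.42, limma adjusted p = 0.106). For RALFL22 the excess of TA was 0.19 log2 (95% interval -0.05 to 0.42, limma adjusted p = 0.374) and the groups overlapped. Without TA replicate 1 that excess was 0.07 log2, and without TA replicate 4 it was 0.29. RALFL24 differed by -0.07 log2 (95% interval -0.29 to 0.16) and RALFL34 by -0.11 (-0.27 to 0.05). For RALFL28 the TA arrays stood 1.03 to 1.44 log2 above methanol and the IXB arrays 1.01 to 1.38 above it, and the groups overlapped. Over the other 9 members the intervals of the difference between the compounds reached from -0.30 to 0.42 log2.

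**Figure D3:**
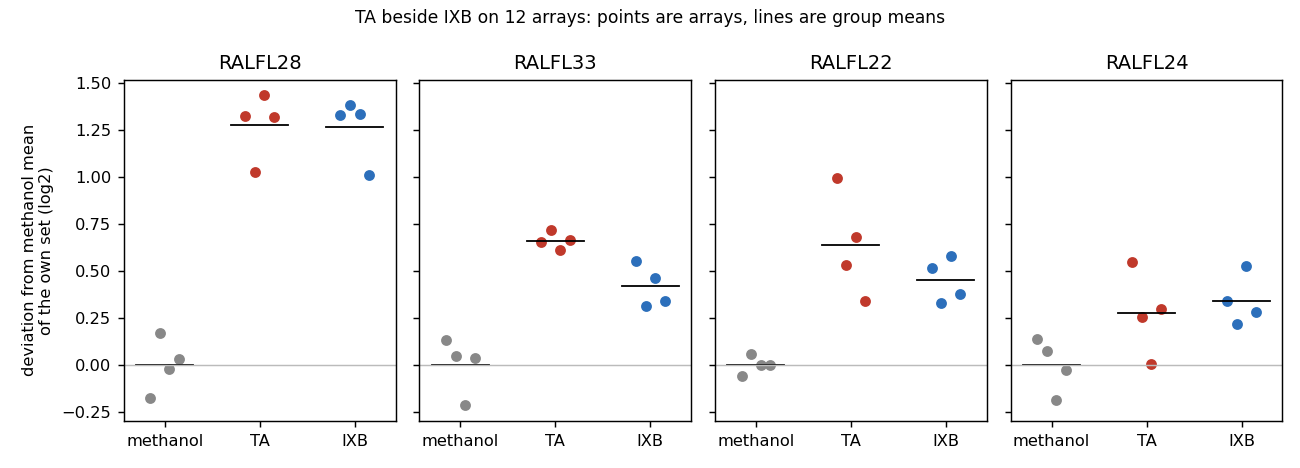
Deviation of each array from its set's methanol mean (log2, vertical axis) for RALFL28, RALFL33, RALFL22 and RALFL24 with methanol, TA and IXB. Points are arrays and lines are group means (n = 4). The TA and IXB arrays of RALFL28 cover the same range, and those of RALFL33 do not overlap.

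Of the measured genes of RALF perception, 1 passed with TA, AT3G22800, and 1 with IXB, THE1. Of 39 genes written for receptors, co-receptors, wall partners, processing, downstream steps and further RALF peptides, members left aside, 17 were measured. These were 7 receptor kinases, 8 genes of the leucine-rich repeat extensin list, the protease S1P and 1 of 8 downstream genes. No further RALF peptide on the list was measured beyond the members, so downstream steps and other peptides were barely covered. RALFL25, described above, was not on that list. With TA 1 rose, 0 fell and 16 did not pass, and with IXB the counts were also 1, 0 and 16, beside the 5.41% and 2.20% of all probe sets called higher. With TA, 1 of 17 is near that share, and with IXB the count rests on 1 gene. Only FER, THE1 and S1P had methanol means above the dim level in the TA set (9.79, 7.63 and 6.24 log2). The others averaged 2.24 to 4.48 there, and the 8 measured pollen genes were all among them. RMA compresses small changes of dim transcripts, so the lack of a call does not show that these genes were unchanged. With same-numbered methanol and IXB arrays paired by a replicate block, 2 of the 17 rose with IXB, THE1 and AT3G22800. No label gives that pairing, and it is uncertain. The median difference of the 17 was 0.06 log2 with TA and 0.05 with IXB. None of the 4 co-receptors written, LLG1, LLG2, LLG3 and LRE, had a listed probe set of exactly 1 gene.

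THE1, which encodes the receptor kinase THESEUS1, read 7.71, 8.12, 8.03 and 7.88 log2 with methanol and 8.46, 8.63, 8.20 and 8.60 with IXB, without overlap. It rose by 0.53 log2 (SE 0.11, limma adjusted p = 0.0255). THE1 no longer passed when methanol replicate 1 or 4, or IXB replicate 1, 2 or 4, was left out (limma adjusted p between 0.0632 and 0.0866). With TA it read 7.76, 7.77, 7.88 and 8.24, against 7.45, 7.83, 7.68 and 7.54 with methanol, and TA replicates 1 and 2 lay within the methanol range. The difference of 0.29 log2 did not pass (limma adjusted p = 0.156) and was 0.18 without TA replicate 4, and TA and IXB did not differ past the threshold for THE1 (difference -0.25, limma adjusted p = 0.273). FER, which encodes FERONIA, averaged 9.79 log2 with methanol and 9.96 with TA, and 10.04 with methanol and 10.30 with IXB. Its differences of 0.16 and 0.26 log2 did not pass (limma adjusted p = 0.285 and 0.125). S1P, the processing protease, differed by 0.05 log2 with TA and -0.01 with IXB and did not pass.

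Among the 8 measured genes of the leucine-rich repeat extensin list, AT3G22800 rose with TA. It read 4.10, 4.04, 4.39 and 4.18 log2 with methanol and 5.03, 4.89, 5.32 and 4.92 with TA. Every TA array lay above every methanol array, with an increase of 0.86 log2 (SE 0.11, limma adjusted p = 1.91e-04). The probe set of AT3G22800 was dim by the same level of 5 log2, so it was not tested where dim probe sets were removed. With IXB AT3G22800 read 4.93, 5.10, 5.43 and 5.30, against 4.80, 4.69, 4.99 and 4.62 with methanol, and IXB replicate 1 lay within the methanol range. That difference was 0.42 log2 (limma adjusted p = 0.0781), and with same-numbered arrays of AT3G22800 paired in the fit the adjusted p was 0.0352. TA exceeded IXB by 0.44 log2 for AT3G22800 (SE 0.12, limma adjusted p = 0.0389). That call was lost in 7 of 12 fits that left out 1 array, with limma adjusted p up to 0.112: those without methanol replicate 1 or 2, TA replicate 1 or 3, or IXB replicate 1, 2 or 4. It was also lost after median centring (limma adjusted p = 0.0631). The other 7 genes of that list did not pass with either compound.

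**Figure D4:**
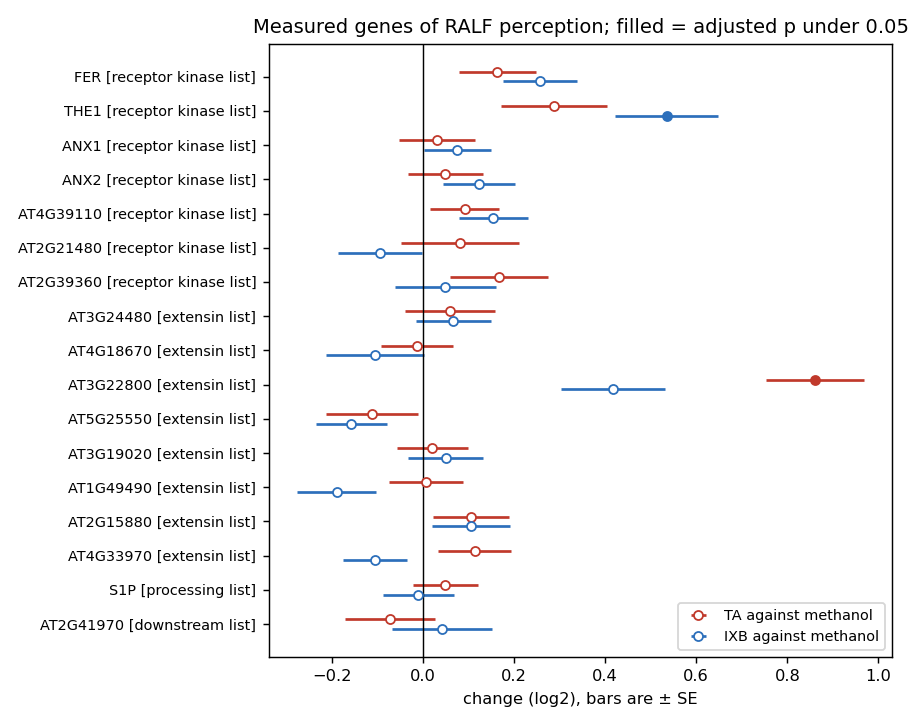
Difference from methanol (log2, horizontal axis, bars ± SE) of the 17 measured genes on the lists of RALF receptors, wall partners, processing and downstream steps, with TA and with IXB. Filled points passed an adjusted p of 0.05. AT3G22800 passed with TA and THE1 with IXB, and no other gene drawn passed.

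The transcripts most like RALFL28 over the 12 arrays were sought among 13512 other probe sets of exactly 1 gene, by Pearson's correlation of the deviations from methanol. The 5 highest were AT3G25600 (r = 0.965), EXLA2 (0.962), AT1G69840 (0.959), AT4G33985 (0.959) and AT5G18150 (0.957). EXLA2 encodes an expansin-like wall protein, and it lay 1.77 log2 above methanol with TA and 1.43 with IXB. For RALFL33, the member other than RALFL28 with the largest difference with TA, they were AT5G65300 (r = 0.979), HCT (0.971), AT2G32030 (0.966), AT3G54150 (0.961) and AT3G10930 (0.961). HCT encodes a transferase of the lignin pathway. The 3 treatment groups are part of every such correlation. After each group's mean was removed, r of the 5 with RALFL28 was 0.42 to 0.78 and of the 5 with RALFL33 0.58 to 0.88. The 5 were picked by r over the same 12 arrays, which favours a high r within groups too. These values are therefore a description only. Among members, RALFL33 correlated with RALFL28 at 0.85 and RALFL22 with RALFL28 at 0.85 over the 12 arrays, and at -0.08 and 0.30 within groups. They stood at ranks 145 and 154 among the 13512 probe sets. The remaining members ran from -0.54 (RALFL26) to 0.67 (RALFL24) over the 12 arrays. Within groups they ran from -0.59 (RALFL26) to 0.52 (RALFL34).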

How the data were processed

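The deposited log2 values come from RMA run by the authors, as the submitters' processing notes state without a version. Because RMA gives the arrays of a set a common distribution, it hides any shift shared by all transcripts. After removal of 64 control features, 22746 probe sets were tested. Of these, 13513 are annotated to exactly 1 gene, 503 to several and 8730 are unnamed here. A gene table of TAIR10.1, used for names only, held 13508 of the single-gene ones. Two-sided tests were made with lmFit and eBayes of limma 3.58.1 (R 4.3.3) and adjusted by Benjamini-Hochberg over all tested probe sets at a threshold of 0.05, each compound within its own set of 8 columns. For TA against IXB both versions of each methanol array entered as their average. Their deviations from the group mean correlated at 0.807 to 0.873 when matched by number. The code was tested on simulated data. Figures were drawn with Python 3.11.15 and matplotlib 3.10.9.

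The members and gene lists were chosen with earlier results of these data known. Named were all members, other RALFL genes past the threshold, up to 4 genes of RALF perception per comparison past it, and 5 transcripts most like RALFL28 and RALFL33. FER, S1P and AT2G21480, and RALFL25 as the gene just outside, were named after their values were seen. Same-numbered methanol and IXB arrays had deviations that correlated at 0.101 to 0.147, all above 0.1, although no label says that they mark a shared culture. Methanol and IXB arrays of unlike number correlated at -0.212 to 0.295. Only 2 of the 4 IXB arrays correlated best with the methanol array of their own number, so the pairing is uncertain. The values given come from the fit without a replicate block, and the blocked value stands beside an IXB result where it changes the call. For same-numbered methanol and TA arrays the range was -0.063 to 0.295, so these numbers are not taken to pair the arrays. Other settings tried were an intensity trend, a replicate block, a robust prior, quantile normalization again, median centring, removal of dim probe sets (mean under 5 log2), probe sets of 1 gene only, and leaving out each array.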

Additional observations from a re-analysis of the deposited data

Results flagged for a closer look

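In 2 of 52 sets of 4 columns checked, all of them of RALFL28, the lowest array lay apart from the rest, where chance gives about 1 in 20. Methanol replicate 1 of the TA set read 5.47 log2, with the next array at 5.80, a gap of 0.901 of the group's range. The same array read 6.01 in the IXB set, where it was not the lowest. IXB replicate 4 read 7.12 log2, with the next array at 7.44, a gap of 0.862 of the range. Without these arrays the difference of RALFL28 from methanol stayed within 1.19 to 1.36 log2 for TA and 1.22 to 1.35 for IXB, the ranges over all fits that left out 1 array.

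AT3G22800 differed between TA and IXB by 0.443 log2, higher with TA, in the limma test of the difference itself (adjusted p = 0.0389). The call did not hold in 7 of 12 fits that left out 1 array, nor after quantile normalization again or median centring.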

How the results depend on the processing

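The count of members called with TA was 2 or 3 and with IXB 2 or 3 under the 7 settings that kept all arrays, and 0 for TA against IXB. Leaving out 1 array gave 2 throughout with TA, 1 to 2 with IXB, and 0 between the compounds. The third member was RALFL24, with TA under the replicate block (limma adjusted p = 0.0482) and with IXB under the intensity trend. The block changed no other member's call. The TA-IXB call of AT3G22800 was lost after quantile normalization again and median centring (limma adjusted p = 0.0615 and 0.0631). The cause of these changes was not tested. Sign changes appeared only when 1 array was left out, for differences that did not pass or were not tested: RALFL31 ran from -0.075 to 0.118 log2 with TA and from -0.035 to 0.132 with IXB, RALFL18 from -0.039 to 0.176 and RALFL27 from -0.093 to 0.044 with IXB. Between the compounds RALFL24 ran from -0.155 to 0.025, RALFL31 from -0.141 to 0.077, RALFL18 from -0.067 to 0.130 and RALFL26 from -0.047 to 0.017, and RALFL28, which was not tested, from -0.071 to 0.096. Over all probe sets 2299 were called with TA, 685 with IXB and 1085 between the compounds. Restricted to probe sets of 1 gene, which tests fewer, these were 1156, 309 and 599, and without 1 array 1678 to 2281, 373 to 639 and 486 to 1212. Removal of dim probe sets moved the share most. It left 2345 of 10987 called with TA (21.3%), 798 of 11879 with IXB (6.72%) and 1118 of 11436 between the compounds (9.78%). The other probe set of a gene could not be tried, since each member has 1. Dim members limit what can be seen, since RMA compresses their changes.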
